A study of Mus musculus with 13 samples.

Results

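The transcripts of 7 enzymes of heme synthesis (Alas1, Alad, Uros, Urod, Cpox, Ppox and Fech) were described in aortic endothelial cells (ECs) and in hearts of mice that lack Hmox2. They were chosen by name as enzymes of the pathway, with earlier results of these data known, and they are 7 of the 36109 genes with a listed transcript. RNA was sequenced from 13 libraries of mice kept in room air. Aortic ECs came from 3 Hmox2+/+ mice (EC WT) and 3 Hmox2-/- mice (EC KO), and whole hearts from 4 Hmox2+/+ mice (heart WT) and 3 Hmox2-/- mice (heart KO). The Hmox2-/- mice were homozygous for the deletion, the Hmox2+/+ mice were their littermates, and no other allele or agent is named. The sequenced mice are described in the study as young, and their sex and strain are not given in the sources used here. EC RNA was released by washing the aortic lumen with a lysis reagent, so no cells were sorted, and heart RNA came from whole frozen organs that hold many cell types. In such bulk RNA, fewer cells of a type and less RNA per cell cannot be told apart. Labels number the samples within a group without tying an EC library to a heart, so each library was taken as 1 mouse and p-values measure the spread between these samples.

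Heme is the iron-porphyrin group of cytochromes, catalase, myoglobin, nitric oxide synthase and soluble guanylate cyclase. Its synthesis starts in the mitochondrion, where Alas1, the housekeeping and rate-limiting enzyme, joins glycine and succinyl-CoA to 5-aminolevulinic acid. The middle steps run in the cytosol, where Alad pairs aminolevulinic acid molecules to porphobilinogen, Uros closes the tetrapyrrole ring and Urod removes carboxyl groups from its side chains. Cpox, Ppox and Fech, back in the mitochondrion, oxidise the side chains, oxidise the ring and insert iron. Heme represses Alas1, and heme oxygenases, among them the Hmox2 product, break heme down to biliverdin, iron and carbon monoxide. The comparisons therefore asked how the transcripts of the synthetic pathway stood in mice without a heme-degrading enzyme, in each tissue.

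Levels are given in CPM, the estimated counts scaled to a common library size after normalization of all 13 libraries by trimmed mean of M-values (TMM). Heart WT 1 held 7268626 estimated counts and the other libraries 26067147 to 31619776. Hmox2 was 48.7 to 57.7 CPM in EC WT and 9.40 to 10.8 CPM in EC KO, and 47.4 to 54.9 CPM in heart WT and 9.61 to 11.3 CPM in heart KO, so the labels held in both tissues. Mitochondrially encoded genes took 37.6% to 44.3% of the counts in heart WT and 22.6% to 27.2% in heart KO. The Y-linked gene Ddx3y was at 0.768 CPM in EC KO 2, at 0.676 CPM in EC KO 3 and at 46.7 CPM or more in every other library. EC KO 2 and EC KO 3 thus differed from every EC WT library in Y-linked RNA as well as in genotype. In the EC comparison, genotype and any effect of sex, which is not given, are therefore in part confounded. The EC libraries held endothelial markers and those of other cells of the vessel wall. Summed over 10 endothelial markers (Pecam1, Cdh5 and others) the level was 2378 to 3490 CPM in EC WT and 4066 to 4990 CPM in EC KO. In the test described below, 4 of these 10 markers passed as higher in EC KO and 1 as lower. The 6 adipocyte markers (Adipoq, Plin1, Ucp1 and others) summed to 5758 to 9264 CPM over all 6 EC libraries.

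Promoter windows of the 4 enzymes whose levels passed the test below in a comparison of genotypes are shown first, because these members moved in different directions. Each holds 250 bases before and 50 bases after an annotated start, 5′ to 3′ on the gene's strand, from RefSeq on GRCm38.p6. All 4 genes lie on the minus strand. Capitals mark matches on either strand to the NRF-1 consensus, which begins and ends with GCGC (NRF-1 regulates nuclear genes for mitochondrial proteins), the E-box CACGTG, the GC box GGGCGG and the CCAAT box. Where 2 GC boxes overlap, their capitals run together.
Alas1, chr9:106247681-106247980: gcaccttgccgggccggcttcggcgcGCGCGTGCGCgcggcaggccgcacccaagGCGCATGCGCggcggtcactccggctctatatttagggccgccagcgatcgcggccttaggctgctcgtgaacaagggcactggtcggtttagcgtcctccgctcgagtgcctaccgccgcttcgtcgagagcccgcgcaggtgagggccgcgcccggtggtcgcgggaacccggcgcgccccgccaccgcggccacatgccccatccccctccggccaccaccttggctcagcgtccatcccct
Alad, chr4:62519860-62520159: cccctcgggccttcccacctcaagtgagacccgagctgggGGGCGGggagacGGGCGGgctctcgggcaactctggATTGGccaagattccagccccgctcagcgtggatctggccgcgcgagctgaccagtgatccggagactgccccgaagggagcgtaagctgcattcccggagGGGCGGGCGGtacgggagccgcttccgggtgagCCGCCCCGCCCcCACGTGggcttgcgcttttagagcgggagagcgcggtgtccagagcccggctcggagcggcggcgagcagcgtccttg
Uros, chr7:133709246-133709545: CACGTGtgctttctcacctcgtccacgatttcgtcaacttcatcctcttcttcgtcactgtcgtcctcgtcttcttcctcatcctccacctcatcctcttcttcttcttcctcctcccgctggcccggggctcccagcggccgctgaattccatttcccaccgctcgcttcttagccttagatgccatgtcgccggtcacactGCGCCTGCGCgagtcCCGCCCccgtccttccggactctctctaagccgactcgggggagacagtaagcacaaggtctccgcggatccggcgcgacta
Urod, chr4:116994364-116994663: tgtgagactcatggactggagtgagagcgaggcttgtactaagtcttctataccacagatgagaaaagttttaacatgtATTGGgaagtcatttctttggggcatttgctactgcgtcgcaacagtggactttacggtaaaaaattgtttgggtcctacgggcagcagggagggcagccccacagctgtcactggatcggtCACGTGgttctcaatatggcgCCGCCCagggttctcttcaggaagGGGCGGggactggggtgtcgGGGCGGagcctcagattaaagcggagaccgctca
Alas1 had 2 NRF-1 sequences, at -224 and -195 relative to the annotated start, and no match to the other 3 motifs. Alad had 6 GC boxes, 1 CCAAT box and 1 E-box and no NRF-1 sequence. Uros had 1 NRF-1 sequence at -47, with 1 GC box and 1 E-box. Urod had 3 GC boxes, 1 CCAAT box and 1 E-box. Of all 32851 promoter windows of this length, 4.6% held the NRF-1 sequence, 7.15% the E-box, 35.7% the GC box and 37.4% the CCAAT box. Alas1 and Alad, which were both lower in EC KO, thus shared none of these motifs in the windows shown, although a second annotated Alas1 window held 1 GC box. A second annotated Alad window held 2 GC boxes, 2 CCAAT boxes and 1 E-box, and a second Uros window held none of these motifs. Windows were examined for 6 of the 7 enzymes, and Fech was left out. TATAAA, which 13.6% of all windows held, and the antioxidant response element TGACNNNGC, which 12.4% held, were in none of theirs. A match is a run of letters and not a measured binding site.

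A gene passed where its p, adjusted over every gene tested, did not exceed 0.05. In ECs of Hmox2-/- mice the enzymes of the first steps, Alas1 and Alad, were lower, and the later enzymes did not pass the test. Alas1 was 350.8, 141.9 and 152.4 CPM in EC WT 1 to 3 and 105.5, 82.6 and 63.4 CPM in EC KO 1 to 3. Every EC KO library was below every EC WT library, and EC WT 1 stood far above the other EC WT libraries. The means were 215 ± 118 CPM (SD, n = 3) and 83.8 ± 21.1 CPM (SD, n = 3). In edgeR's quasi-likelihood test the log2 fold change was -1.33 (SE 0.37, 95% confidence interval -2.19 to -0.46), a 2.51-fold lower level, with a Benjamini-Hochberg adjusted p of 0.0466. This call sat at the threshold. Without EC WT 1 the log2 fold change was -0.77 (adjusted p = 0.0729), and the call was also lost without EC KO 1, EC KO 2 or EC KO 3 (-1.52, -1.31 and -1.15, with adjusted p = 0.0736, 0.121 and 0.157) and with an offset for transcript length and GC content (-1.09, adjusted p = 0.0801). Alas1 lies on chromosome 9 (106110642 to 106135734, minus strand of GRCm39) and shared no 31-base word (the unit by which Kallisto assigns reads) with another gene.

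Alad, a zinc enzyme and the target of lead, was 91.7, 89.6 and 66.6 CPM in EC WT 1 to 3 and 26.2, 27.6 and 23.5 CPM in EC KO 1 to 3. The EC KO libraries lay close together, and the lowest EC WT library was above all of them. Means were 82.6 ± 14.0 and 25.8 ± 2.09 CPM (SD, n = 3 each), so the EC KO level was 31.2% of the EC WT level. The log2 fold change was -1.64 (SE 0.15, 95% confidence interval -1.995 to -1.29), 3.12-fold lower, with an adjusted p of 0.00183 by edgeR and Benjamini-Hochberg. This was the largest change among the 7 enzymes in ECs. Without each single library in turn the call held. Without EC KO 2 and EC KO 3 together, the libraries that lacked Y-linked RNA, the log2 fold change of Alad was -1.62 with an adjusted p of 0.132, and that of Alas1 was -0.99 with an adjusted p of 0.467. That fit has 1 EC KO library, assumed to vary like the EC WT libraries, and called 23 genes higher and 26 lower. Alad lies on chromosome 4 (62423283 to 62438587, minus strand) and shared no 31-base word with another gene.

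The remaining 5 enzymes did not pass the test in ECs. Fech, which inserts iron into protoporphyrin, was 65.2, 85.4 and 60.5 CPM in EC WT and 49.0, 55.9 and 50.6 CPM in EC KO. Its libraries did not overlap between genotypes, and its log2 fold change of -0.40 (SE 0.15) had an adjusted p of 0.0984 by edgeR. With the average transcript length as an offset the Fech value was -0.63 (adjusted p = 0.0339). Fech also passed with length-scaled TPM (-0.63, adjusted p = 0.0343) and without EC WT 3 (-0.50, adjusted p = 0.0490). In the fit of all libraries the Fech value was -0.44 (adjusted p = 0.0191). Uros was 10.7 to 15.6 CPM in EC WT and 11.4 to 14.8 CPM in EC KO, and Urod was 34.8 to 48.1 and 35.1 to 41.6 CPM. Cpox was 8.02 to 10.1 CPM in EC WT and 8.25 to 9.64 CPM in EC KO, and Ppox was 19.8 to 22.4 and 19.9 to 21.5 CPM. These 4 enzymes overlapped between genotypes in ECs. Their log2 fold changes were -0.03 for Uros, -0.09 for Urod, 0.03 for Cpox and 0.05 for Ppox. The 95% confidence intervals ran from -0.43 to 0.37 for Uros, -0.43 to 0.25 for Urod, -0.31 to 0.38 for Cpox and -0.20 to 0.30 for Ppox, so changes of 2-fold lay outside them.

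In all, 2 of the 7 enzymes passed in ECs, both lower, against 18.1% of the 15301 genes tested (10% higher and 8.06% lower). Both changed at least 2-fold, as 9.28% of genes did (5.39% higher and 3.89% lower). For 3 of the 7 the genotypes did not overlap, as for 41.2% of genes tested. The median log2 fold change was -0.09 over the 7 enzymes and -0.02 over all genes tested.

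Markers of other cell types moved with genotype in the same EC libraries. Of 10 cardiomyocyte markers 9 were lower in EC KO, and their summed level was 105 to 399 CPM in EC WT and 8.05 to 9.62 CPM in EC KO. The 6 smooth muscle markers (Acta2, Myh11 and others) summed to 4864, 2507 and 3857 CPM in EC WT 1 to 3 and to 2701, 869 and 779 CPM in EC KO 1 to 3, and 2 of the 6 passed as lower. EC WT 1 was thus highest both for smooth muscle markers and for Alas1. None of the 6 adipocyte markers passed, with summed levels of 5913 to 9264 CPM in EC WT and 5758 to 6001 CPM in EC KO. None of the 8 erythroid markers tested passed, and the summed level of the 10 measured was 1817 to 2809 CPM in EC WT and 1418 to 2653 CPM in EC KO. No defining marker of these lists was at 0 in a whole EC group. Fibroblast and leukocyte markers summed to 1590 to 3030 and 227 to 331 CPM in EC WT and to 3864 to 4520 and 420 to 679 CPM in EC KO. The part of these cells in the levels of Alas1 and Alad was not tested.

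**Figure D1:**
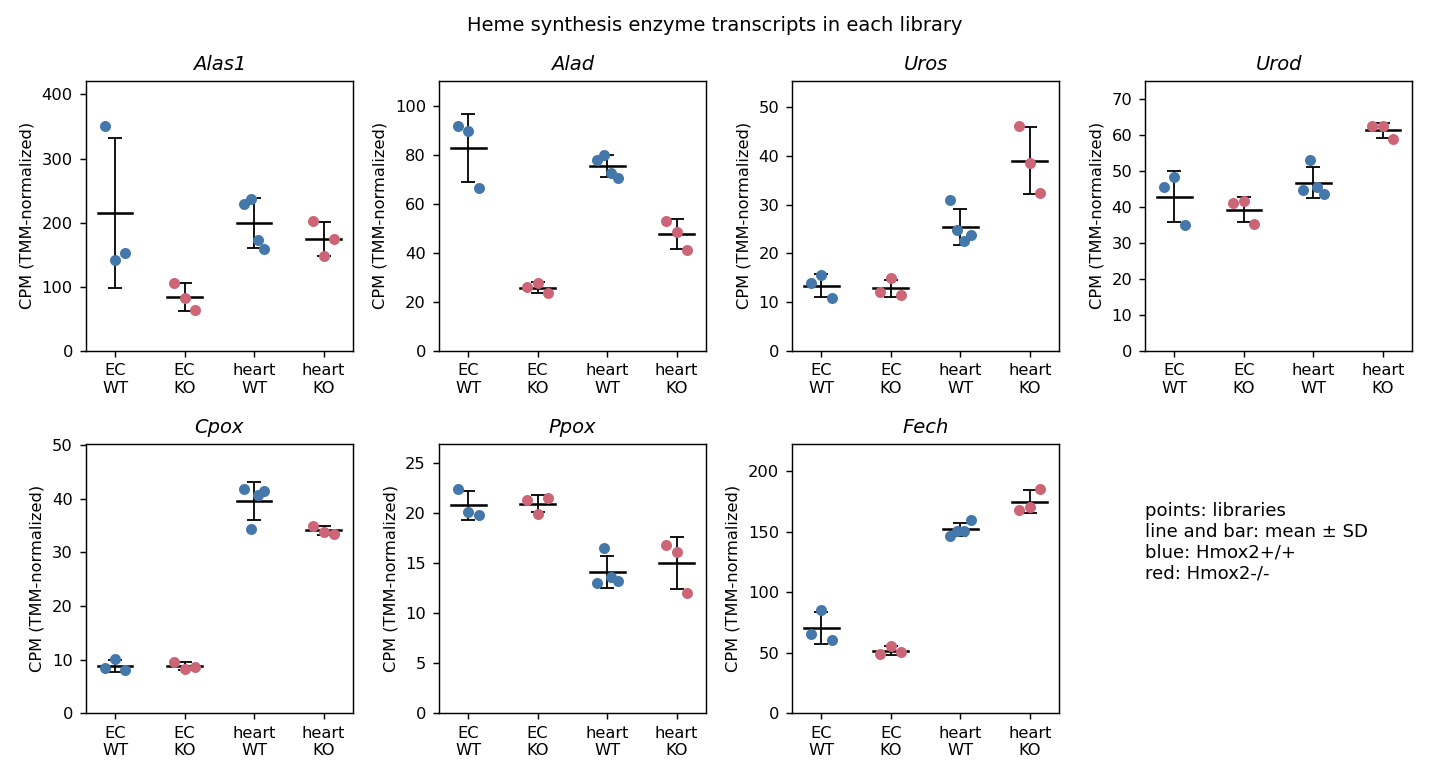
Level of each enzyme in CPM (vertical axis, starting at 0) in every library of the 4 groups; points are libraries, and the line and bar are the mean and SD. Alad in EC KO (23.5 to 27.6 CPM) lay below all EC WT libraries (66.6 to 91.7 CPM), and EC WT 1 was the highest library for Alas1 at 350.8 CPM.

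In hearts of Hmox2-/- mice Alad was lower and the next enzymes measured, Uros and Urod, were higher, while Alas1 and the 3 late mitochondrial enzymes did not pass. Alad was 78.0, 80.0, 72.6 and 70.7 CPM in heart WT 1 to 4 and 53.0, 48.6 and 41.1 CPM in heart KO 1 to 3. All heart KO libraries were below all heart WT libraries. The heart KO mean was 47.6 ± 5.99 CPM (SD, n = 3) against 75.3 ± 4.39 CPM (SD, n = 4), or 63.1% of it. The log2 fold change was -0.66 (SE 0.11, 95% confidence interval -0.90 to -0.42), with an adjusted p of 0.00173 by edgeR and Benjamini-Hochberg. Alad was the single enzyme of the 7 that passed in the same direction in both tissues, and its call in hearts held in all 16 refits at the threshold of 0.05.

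Uros was 30.9, 24.8, 22.5 and 23.7 CPM in heart WT 1 to 4 and 46.1, 38.5 and 32.4 CPM in heart KO 1 to 3. The lowest heart KO library was above the highest heart WT library, which was the shallow heart WT 1. The mean rose from 25.5 ± 3.70 CPM (SD, n = 4) to 38.99 ± 6.88 CPM (SD, n = 3), a log2 fold change of 0.63 (SE 0.14, 95% confidence interval 0.32 to 0.95) with an adjusted p of 0.00765 by edgeR. The Uros call held in the same 16 refits, with log2 fold changes of 0.44 to 0.77. Uros lies on chromosome 7 (133285987 to 133311801, minus strand of GRCm39) and shared 1.61% of its 31-base words with other genes.

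Urod was 44.7, 53.0, 45.4 and 43.4 CPM in heart WT 1 to 4 and 62.3, 62.4 and 58.7 CPM in heart KO 1 to 3. The heart KO libraries lay within a narrow range above all heart WT libraries. The means were 46.6 ± 4.36 (SD, n = 4) and 61.1 ± 2.12 CPM (SD, n = 3), a log2 fold change of 0.39 (SE 0.10, 95% confidence interval 0.17 to 0.60) with an adjusted p of 0.0119 by edgeR. The Urod call was lost with the offset for length and GC content (0.14, adjusted p = 0.217), without heart KO 2 (0.37, adjusted p = 0.0515) and with the replicate number as a block (0.35, adjusted p = 0.0520). Urod (chromosome 4, 116844840 to 116851610, minus strand) shared 54% of its 31-base words with other genes, since 3440 of its exon bases overlap Zswim5 on the other strand. The authors' counting did not use strand, so reads of Urod and Zswim5 cannot be told apart there.

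Alas1 overlapped between genotypes in hearts, at 229.3, 236.9, 172.7 and 159.5 CPM in heart WT 1 to 4 and 201.8, 148.4 and 174.6 CPM in heart KO 1 to 3. Its log2 fold change was -0.19 (95% confidence interval -0.53 to 0.15) with an adjusted p of 0.369 by edgeR, and -0.50 (adjusted p = 0.0200) with the offset for length and GC content. Fech was 146.9, 150.4, 151.0 and 159.5 CPM in heart WT and 167.8, 170.7 and 185.6 CPM in heart KO. These libraries did not overlap, but the log2 fold change of Fech was small at 0.20 (SE 0.09) and its adjusted p was 0.0968. With the average transcript length as an offset it was 0.33 (adjusted p = 0.0272). Cpox, which oxidises coproporphyrinogen between the mitochondrial membranes, was 34.3 to 41.8 CPM in heart WT and 33.4 to 34.98 CPM in heart KO, with a log2 fold change of -0.22 (adjusted p = 0.131). Ppox, which makes protoporphyrin, was 13.1 to 16.5 CPM in heart WT and 12.0 to 16.8 CPM in heart KO, with a log2 fold change of 0.08 (adjusted p = 0.710).

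In hearts 3 of the 7 enzymes passed, 2 higher and 1 lower, against 33.4% of the 13816 genes tested (17.2% higher and 16.2% lower). A count of 3 in 7 stands near that background. None of them changed 2-fold, as 6.71% of genes did (2.66% higher and 4.05% lower). For 4 of the 7 the genotypes did not overlap, against 40.2% of genes tested, and the median log2 fold change was 0.08 over the 7 and -0.01 over all genes.

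Markers of other cell types also moved with genotype in the hearts. Of 6 erythroid markers tested, 5 were higher in heart KO, and the 10 measured (globin genes, Alas2 and others) summed to 233 to 442 CPM in heart WT and 1154 to 1849 CPM in heart KO. Alas2, the aminolevulinic acid synthase of red cell precursors, was 7.95, 6.44, 3.43 and 4.48 CPM in heart WT 1 to 4 and 20.0, 15.4 and 15.7 CPM in heart KO 1 to 3. Its log2 fold change was 1.69 with an adjusted p of 6.33e-04 by edgeR. Among the heart KO libraries, heart KO 1 was highest for the erythroid sum (1849 CPM), for Uros and for Alad, which was lower in heart KO. That library was also highest for the leukocyte, endothelial, smooth muscle, fibroblast and adipocyte sums, but not for the cardiomyocyte sum. Vessels and hearts had been flushed with saline before dissection. Of 5 leukocyte markers tested, 3 were higher, and the summed level of the list was 106 to 158 CPM in heart WT and 198 to 342 CPM in heart KO. Of 10 endothelial markers, 3 were higher and 1 lower (sums of 668 to 812 and 880 to 904 CPM), and of 6 smooth muscle markers 3 were higher and 1 lower (303 to 358 and 333 to 465 CPM). Of 10 cardiomyocyte markers 4 were higher (70300 to 78160 and 75130 to 80980 CPM), and of 5 fibroblast markers 2 were lower (530 to 618 and 577 to 708 CPM). Erythroid, leukocyte and endothelial sums did not overlap between genotypes, and those of the cardiomyocyte, smooth muscle and fibroblast lists did. The part of these cells in the Uros and Urod values was not tested.

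**Figure D2:**
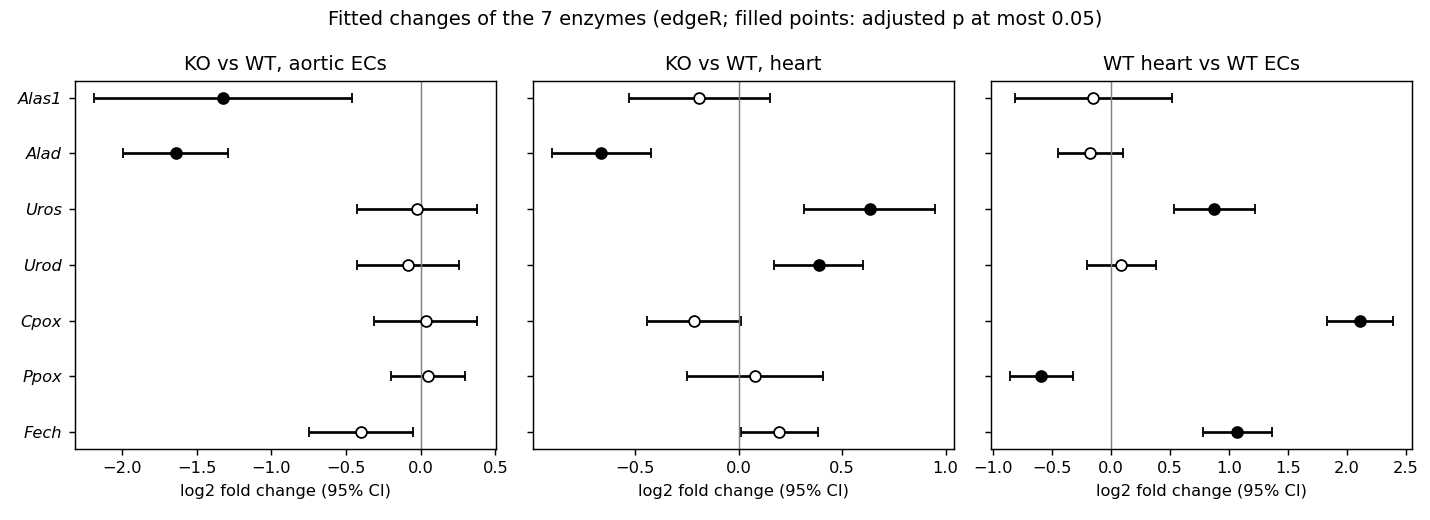
Fitted log2 fold change (horizontal axis) of each enzyme with its 95% confidence interval in the 3 comparisons; filled points had an adjusted p of at most 0.05. Alas1 (-1.33) and Alad (-1.64) were filled in ECs, Alad (-0.66), Uros (0.63) and Urod (0.39) in hearts, and Uros, Cpox, Ppox and Fech between the WT tissues.

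The effect of genotype was then compared between the tissues in 1 fit of all 13 libraries, where a positive difference means that the heart value was above the EC value. For Alad, lower in both tissues, the difference was 1.02 (SE 0.18, 95% confidence interval 0.62 to 1.41, adjusted p = 0.00172 by edgeR), so the decrease was larger in ECs. Fech differed by 0.64 (SE 0.17, adjusted p = 0.0135), although it passed in neither tissue's own fit. In the fit of all libraries its EC value did pass (-0.44, adjusted p = 0.0191). The calls for Alad and Fech held in all 21 refits at the threshold of 0.05, while at 0.01 that of Fech was lost. The differences for Alas1 (1.17, SE 0.41, adjusted p = 0.0463), Uros (0.69, SE 0.23, adjusted p = 0.0391) and Urod (0.51, SE 0.17, adjusted p = 0.0398) lay near the threshold and were lost in 11, 13 and 13 of the 21 refits. Cpox (-0.21, adjusted p = 0.356) and Ppox (0.07, adjusted p = 0.813) did not pass. The 5 calls out of 7, all with the heart value above the EC value, compare with 28.8% of 15938 genes called in either direction and 16.2% called with a higher heart value (12.6% with a lower one). Alas1 and Alad differed at least 2-fold, as 15.4% of genes did (8.08% higher and 7.33% lower). The median difference was 0.64 over the 7 enzymes and 0.03 over all genes tested.

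At baseline the tissues differed most in Cpox and Fech, enzymes of the late mitochondrial steps. Cpox was 8.55, 10.1 and 8.02 CPM in EC WT 1 to 3 and 41.8, 34.3, 40.7 and 41.4 CPM in heart WT 1 to 4. Every heart WT library was far above every EC WT library, 4.32-fold higher (log2 difference 2.11, SE 0.13, adjusted p = 3.25e-07 by edgeR). Fech was 60.5 to 85.4 CPM in EC WT and 146.9 to 159.5 CPM in heart WT, 2.10-fold higher in hearts (log2 fold change 1.07, SE 0.13, adjusted p = 4.92e-05). Uros was 10.7 to 15.6 CPM in EC WT and 22.5 to 30.9 CPM in heart WT, a log2 difference of 0.88 (SE 0.15, adjusted p = 5.74e-04). Calls for Cpox, Fech and Uros held in all 16 refits. Cpox lies on chromosome 16 (58490414 to 58537999, plus strand of GRCm39) and Fech on chromosome 18 (64585985 to 64623322, minus strand), and they shared 6.23% and 6.34% of their 31-base words with other genes.

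Ppox went the other way, at 22.4, 20.1 and 19.8 CPM in EC WT and 13.1, 16.5, 13.6 and 13.2 CPM in heart WT. The heart value was lower by a log2 difference of -0.59 (SE 0.12, adjusted p = 0.00152 by edgeR), or -0.40 (adjusted p = 0.0512) with the average transcript length as an offset. Ppox lies on chromosome 1 (171100969 to 171109385, minus strand of GRCm39), and 3277 of its exon bases overlap B4galt3 on the other strand, so its reads are in part uncertain. Alas1 (-0.15, 95% confidence interval -0.81 to 0.52), Alad (-0.17, -0.45 to 0.10) and Urod (0.09, -0.20 to 0.38) did not pass between the tissues. The sign for Alas1 depended on EC WT 1, since without that library the value was 0.42 (adjusted p = 0.0529). In all, 3 enzymes were higher and 1 lower in hearts, against 67.9% of 14777 genes called (32.5% higher and 35.4% lower). Cpox and Fech changed at least 2-fold, as 39.6% of genes did (17% higher and 22.6% lower), and 4 of 7 did not overlap, against 68.3% of genes. The RNA of the tissues was isolated with different reagents, and tissue and reagent cannot be told apart.

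Levels of different genes were compared only per length, in TPM as deposited and summed per gene. In EC WT the order was Alas1 (273 ± 105 TPM), Alad (111 ± 16.0), Fech (51.4 ± 14.6), Urod (47.8 ± 9.79), Ppox (17.2 ± 2.04), Uros (13.3 ± 2.51) and Cpox (4.94 ± 1.25), each as mean and SD of 3 libraries. Fech and Urod overlapped, as did Ppox and Uros. In EC KO, Alas1 was still first (104 ± 29.2 TPM), but Urod (45.5 ± 3.79 TPM) stood above Alad (35.1 ± 2.52 TPM), and these ranges did not overlap. Heart WT had Alas1 first (138 ± 37.5 TPM), then Fech (55.7 ± 5.09) and Alad (52.2 ± 7.12), which overlapped, then Urod (26.4 ± 4.64), Uros (13.04 ± 3.15) and Cpox (9.68 ± 0.53), which overlapped, and Ppox last (6.74 ± 1.84). Heart KO had Alas1 (149 ± 27.1 TPM), Fech (88.1 ± 11.9), Urod (42.4 ± 0.20) and Alad (40.7 ± 3.05), the last pair overlapping, then Uros (23.9 ± 3.40), Cpox (10.4 ± 0.36) and Ppox (8.71 ± 0.79). The lowest enzyme was thus Cpox in ECs and Ppox in hearts. With CPM per kilobase of the first annotated transcript in place of TPM, Fech (84.8 ± 4.64) stood level with Alas1 (82.2 ± 12.6) in heart KO, with overlapping ranges. In EC KO, Fech (25.2 ± 1.76) then stood above Alad (21.4 ± 1.73), and these ranges did not overlap. By this measure Alas1 overlapped with Alad in EC WT and with Fech in heart WT.

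The order for Alas1 rests in part on how reads were shared among its transcripts. Of 13 listed Alas1 transcripts 4 had a mean of at least 1 TPM, and Alas1-211, an annotated coding transcript of 460 bases, held the largest share of the gene's TPM. That share was 49.3%, 52.5% and 44.3% in EC WT 1 to 3 and 40.7%, 41.6% and 40.8% in EC KO 1 to 3, and 45.4% to 51.3% over all hearts. All EC KO libraries were below all EC WT libraries, but the exact permutation test gave p = 0.1, the smallest that 3 against 3 libraries allow (two-sided, adjusted p = 0.4 over 21 comparisons). In estimated counts Alas1-211 held a mean of 10.1% in EC KO and 13.2% in EC WT, because a short transcript needs few reads for a given TPM. Alas1-206, annotated without a coding region, held 32.5% to 39.8% of TPM, and the full-length Alas1-201 held 9.99% to 18.4%. Alad and Urod were in contrast nearly single-transcript genes, as Alad-201 held at least 94.6% and Urod-201 at least 86.4% of the TPM in every library.

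Between genotypes, Ppox had the largest shift in the share of its leading transcript in both tissues. The full coding transcript Ppox-201 held 66.0%, 68.2% and 53.5% of Ppox TPM in EC WT 1 to 3 and 52.9%, 42.6% and 38.8% in EC KO 1 to 3. In hearts it held 46.9%, 47.7%, 55.0% and 54.6% in heart WT 1 to 4 and 80.9%, 69.2% and 66.4% in heart KO 1 to 3. The share was thus lower in every EC KO library and higher in every heart KO library than in the WT libraries of the tissue, with mean differences of -17.83 and 21.12 percentage points. The exact permutation tests (two-sided) gave p = 0.1 in ECs and p = 0.0571 in hearts, the smallest that these group sizes allow, and adjusted p = 0.4 for both. These shares rest on few reads, from 69 estimated counts of Ppox in heart WT 1 to 843 in EC WT 3. Part of the Ppox exon bases also overlap B4galt3, as given above, so the split of reads among transcripts is uncertain. The gene level of Ppox did not pass in either tissue. Cpox-201 held 98.0% to 98.4% of Cpox TPM in heart WT and 79.8%, 79.7% and 56.7% in EC WT, with the same exact permutation p of 0.0571 (adjusted p = 0.4). Fech was spread over 7 transcripts with a mean of at least 1 TPM, of which Fech-201 held 26.2% to 61.2%. None of the 21 comparisons passed the adjustment.

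**Figure D3:**
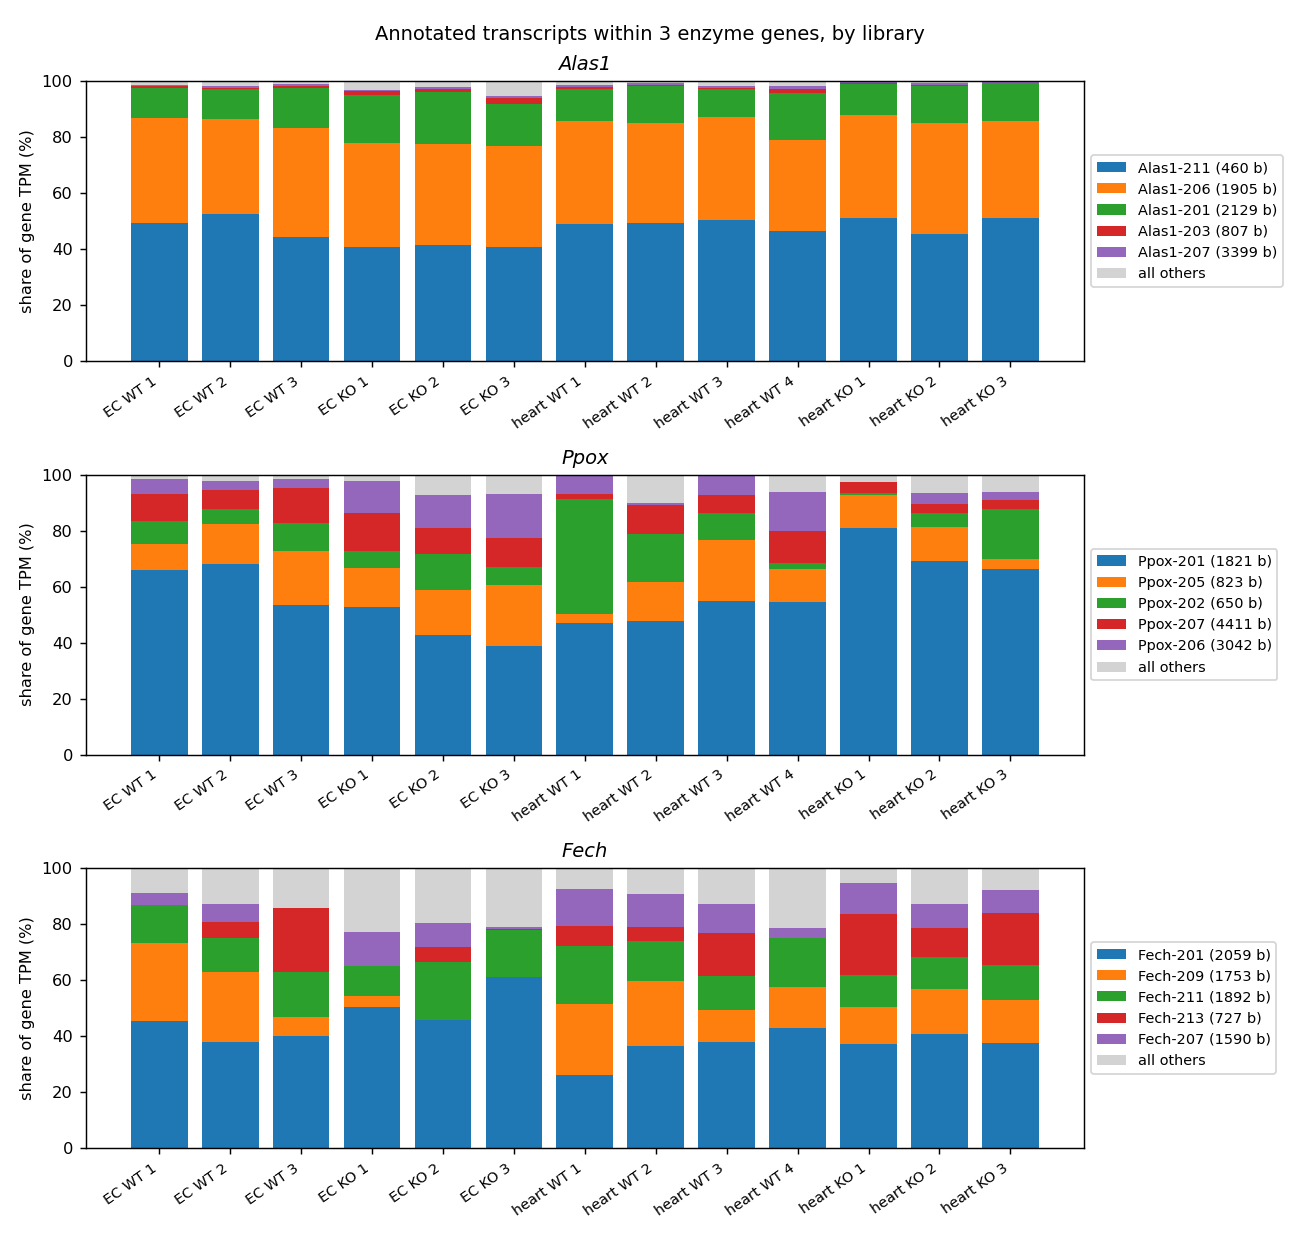
Share of each gene's TPM (vertical axis, percent) held by its 5 leading annotated transcripts in every library for Alas1, Ppox and Fech, with the transcript length in bases; grey is the sum of all others. Ppox-201 took 38.8% to 52.9% in EC KO and 66.4% to 80.9% in heart KO.

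Genes that work with these enzymes were taken from 4 lists. The list of pathway partners holds 18 genes, among them Alas2, the carriers of the intermediates and the iron supply. In hearts 10 of the 18 were higher and 2 lower, against 17.2% and 16.2% of all genes tested, with a median log2 fold change of 0.45 against -0.01 over all genes. Slc25a38, the glycine carrier of the mitochondrial membrane (0.73, adjusted p = 0.00235), Tmem14c, which takes porphyrinogen into the mitochondrial matrix (0.65, adjusted p = 6.15e-04), and Abcb6, a porphyrin transporter (0.72, adjusted p = 0.00208), rose. So did the genes of iron-sulfur cluster assembly Iscu (0.82, adjusted p = 0.00272) and Fdx2 (1.03, adjusted p = 0.00393), which matter here because Fech carries such a cluster. Also higher were the carrier gene Slc25a39 (0.79, adjusted p = 4.65e-04) and Clpp (0.70, adjusted p = 0.00629). Pgrmc1 (0.50, adjusted p = 0.00691) and Snx3 (0.39, adjusted p = 0.00983) were higher too. Clpx, the mitochondrial unfoldase that acts on aminolevulinic acid synthase, fell (-0.50, adjusted p = 0.00479), as did the carrier gene Slc25a40 (-0.64, adjusted p = 0.00480).

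In ECs 0 of the 18 partners were higher and 3 were lower, against 10% and 8.06% of all genes tested, with a median log2 fold change of -0.26 against -0.02 over all genes. The 3 were Clpx (-0.74, adjusted p = 0.0354 by edgeR), Lonp1, a mitochondrial protease that degrades Alas1 protein (-0.75, adjusted p = 0.0253) and Iscu (-0.65, adjusted p = 0.0183). The count of 3 fell to 0 without EC WT 1, EC KO 1, EC KO 2 or EC KO 3 and to 1 without EC WT 2, and was 6 without EC WT 3, 5 with DESeq2 and 7 in the fit of all libraries. The difference between tissues passed for Iscu (1.51, adjusted p = 4.63e-04), and for 11 of the 18 in all (28.8% of all genes). The heart value was above the EC value for 10 of them and below it for 1, or for 0 without EC WT 1, EC KO 2 or heart KO 2. In WT tissues 7 partners were higher and 5 lower in hearts than in ECs, against 32.5% and 35.4% of all genes.

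**Figure D4:**
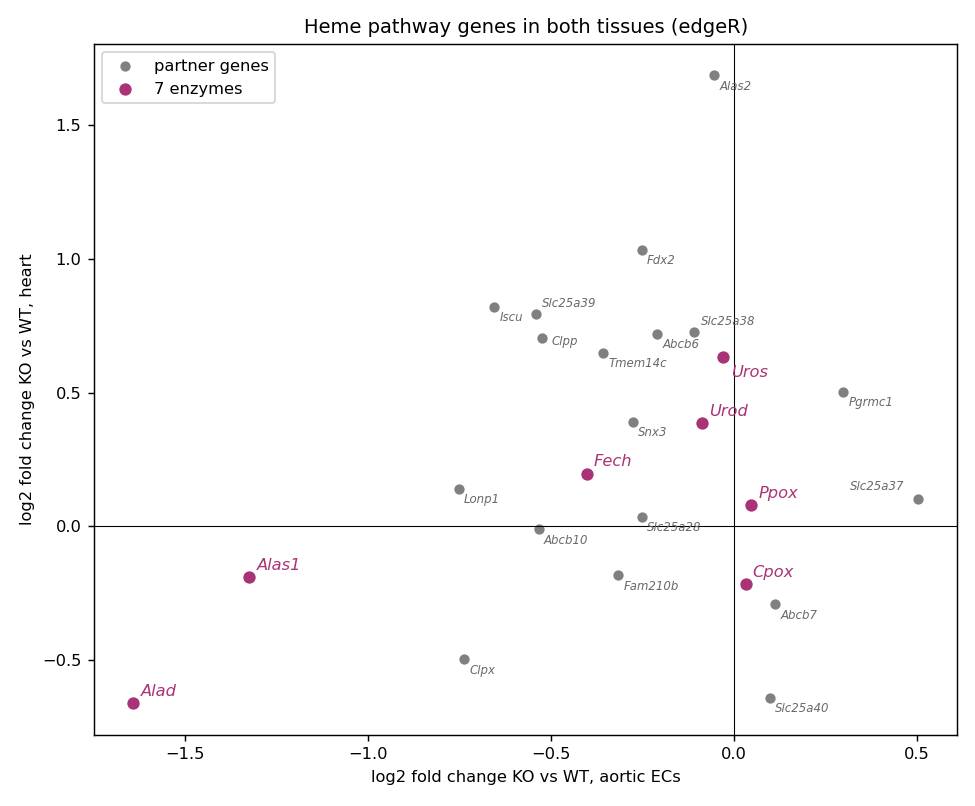
Log2 fold change between genotypes in aortic ECs (horizontal axis) and in hearts (vertical axis) for the 7 enzymes and the 18 partner genes. Alad (-1.64 and -0.66) and Alas1 (-1.33 and -0.19) lie at lower left, and Iscu (-0.65 and 0.82) at upper left.

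Of the 13 genes of heme transport and breakdown 12 were tested. In ECs 0 were higher and 3 lower, namely Hmox2 itself (-2.34, adjusted p = 1.31e-04 by edgeR) and the heme binding genes Pgrmc2 (-0.53, adjusted p = 0.0405) and Hebp1 (-0.49, adjusted p = 0.0431), against 8.06% of all genes lower. Hmox2 is the deleted gene, so its calls in both tissues follow from the genotype and are no result about the list. Without it the EC calls were Pgrmc2 and Hebp1 alone, where 18.1% of all genes were called in either direction. The count of 3 fell to 1 without EC WT 1, EC WT 2, EC KO 2 or EC KO 3, with upper-quartile scaling and with both treatments of transcript length, and was 5 in the fit of all libraries. In hearts 4 were higher (17.2% of all genes) and 1, Hmox2 (-2.30, adjusted p = 1.58e-07), was lower. The 4 were the inducible heme oxygenase gene Hmox1 (1.998, adjusted p = 8.95e-04), the biliverdin reductases Blvra (0.65, adjusted p = 0.00405) and Blvrb (0.67, adjusted p = 0.0173) and the heme transporter Slc48a1 (0.51, adjusted p = 0.00310). Hmox1 had a mean of 4.85 CPM in heart WT and 20.2 CPM in heart KO. In ECs its means were 11.8 and 27.0 CPM with an adjusted p of 0.145.

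Among 18 genes that modify heme or carry it, 3 were higher and 1 lower in ECs, and 5 were higher and 1 lower in hearts. These 4 and 6 of 18 stand near the background, where 18.1% of all genes were called in ECs and 33.4% in hearts. The 3 in ECs were the endothelial nitric oxide synthase Nos3 (0.92, adjusted p = 0.0183 by edgeR), the prostaglandin synthase Ptgs1 (1.11, adjusted p = 0.00405) and the thromboxane synthase Tbxas1 (1.39, adjusted p = 0.0128). The 1 lower was the myoglobin gene Mb (-5.13, adjusted p = 0.00551), at means of 44.1 CPM in EC WT and 1.22 CPM in EC KO, which moved with the cardiomyocyte markers. Without EC KO 3 the count of 3 was 1, and the count of 1 lower was 2 without EC WT 2, 4 without EC WT 3 and 2 to 5 in 6 other alternatives. In hearts Mb (0.46, adjusted p = 0.0140), the cytochrome gene Cyc1 (0.65, adjusted p = 0.00314), Sdhd of respiratory complex II (0.60, adjusted p = 0.00136), Ptgs1 (0.71, adjusted p = 0.00772) and the prostacyclin synthase Ptgis (0.93, adjusted p = 0.00596) were higher, and Ptgs2 (-1.27, adjusted p = 0.0319) was lower. The 1 lower was 0 without heart WT 1, 2 or 3 or heart KO 2 or 3, and the 5 higher were 8 with the length and GC offset and 3 with the replicate number as a block.

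Of 12 genes linked to Alas1 transcription or to the clock that acts on it, 0 were higher and 1 lower in ECs, and 1 was higher and 5 were lower in hearts. Over all genes 8.06% were lower in ECs, and 17.2% were higher and 16.2% lower in hearts. The EC count was 0 without EC KO 3 and 3 with the replicate number as a block, and 8 were lower in hearts without heart KO 3. The 1 in ECs was the coactivator gene Ppargc1b (-1.54, adjusted p = 0.0164 by edgeR), which was also lower in hearts (-0.73, adjusted p = 0.00779). Ppargc1a, a coactivator of Alas1, did not pass in ECs (0.63, adjusted p = 0.441) or in hearts (0.12, adjusted p = 0.562), and neither did Nrf1, whose product binds the sequence found in the Alas1 window (0.07, adjusted p = 0.709, and 0.01, adjusted p = 0.965). The other 4 lower genes in hearts belonged to the clock, with Dbp at -1.66 (adjusted p = 1.59e-04), Per2 at -1.50 (adjusted p = 0.00666), Per1 at -1.12 (adjusted p = 6.51e-04) and Nr1d1 at -0.99 (adjusted p = 6.57e-04). The 1 higher gene, Bmal1 (1.58, adjusted p = 0.00413), is also a clock gene, which runs opposite in phase to Dbp and Per2. The time of day of collection is not given in the sources used here.

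The pattern over all 13 libraries was compared with that of Alas1 by the root mean square difference of log2 CPM. Each gene was centred on its mean within each tissue, after adding 0.5 CPM, which shrinks changes of genes at low levels. Of 13351 genes the nearest were Nos2 (0.192), Coq8a (0.193), Rgs5 (0.201), Sh3pxd2a (0.240) and Rnf144b (0.245), against a median of 0.600 over all genes. The fitted log2 fold change of Nos2 was -2.24 in ECs (adjusted p = 0.0677 by edgeR) and -0.32 in hearts. That of Alas1 was -1.33 in ECs and -0.19 in hearts, so a near rank by this measure does not mean an equal fitted change. Coq8a, a gene of coenzyme Q synthesis, had a log2 fold change of -1.46 in ECs (adjusted p = 0.0285 by edgeR) and 0.00 in hearts, and Rgs5, a gene of vascular mural cells, had -1.04 in ECs (adjusted p = 0.0570) and -0.04 in hearts. Among the other enzymes Alad was nearest to Alas1 at rank 297 (0.379), and Uros was farthest at 0.609.

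**Figure D5:**
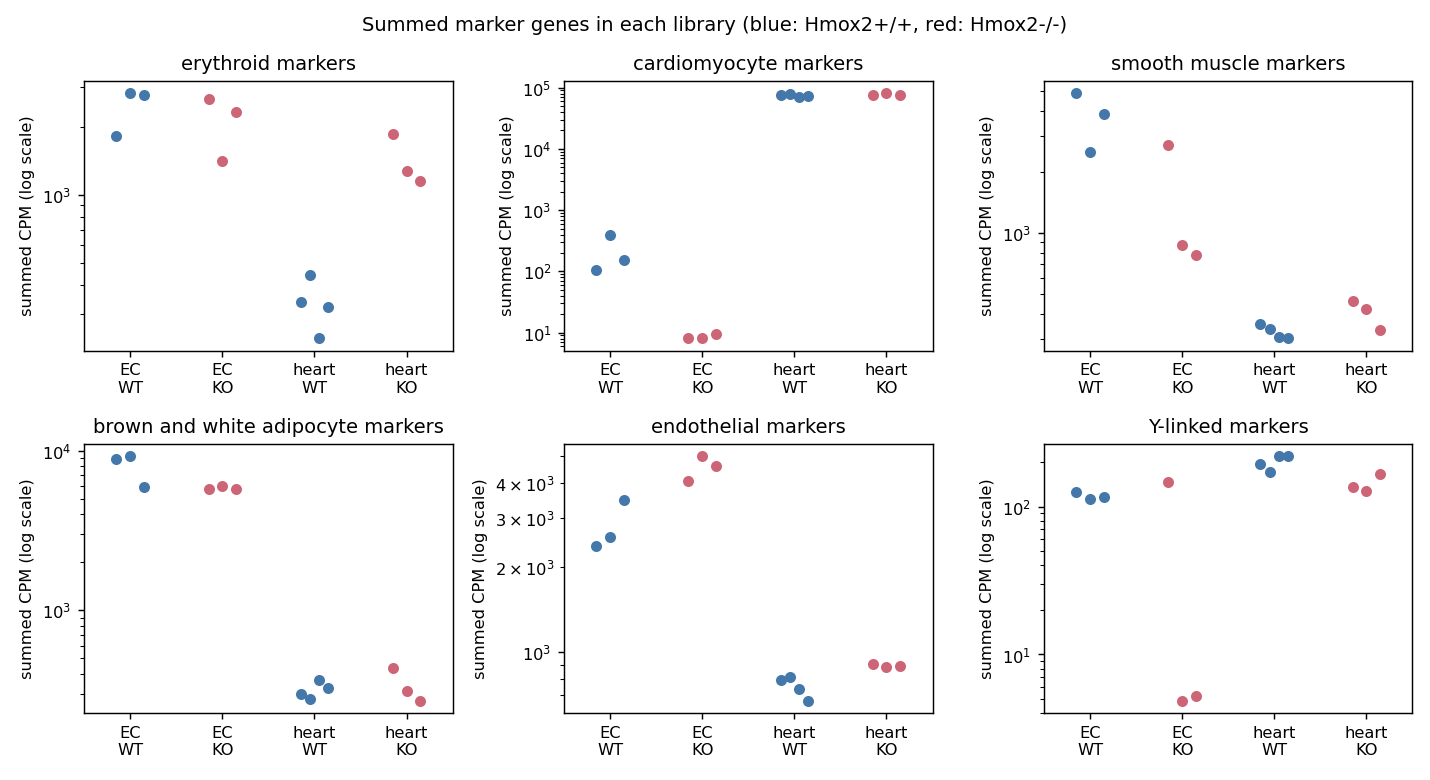
Summed CPM of marker genes (vertical axis, log scale) in every library for 6 lists; blue points are Hmox2+/+ and red points Hmox2-/- libraries. Cardiomyocyte markers were 105 to 399 CPM in EC WT and 8.05 to 9.62 CPM in EC KO, erythroid markers were 233 to 442 CPM in heart WT and 1154 to 1849 CPM in heart KO, and EC KO 2 and EC KO 3 were at 4.84 and 5.24 CPM for Y-linked genes.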

How the data were processed

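RNA-seq of 13 libraries (oligo-dT selected, strand kept, paired reads) was deposited by the authors as estimated counts per transcript. They made them with Kallisto 0.44.0 at default settings, which do not use strand, 1 library at a time. The deposited TPM values come from the same Kallisto runs and are not normalized between libraries. The methods name a GENCODE M32 index, while the processing notes list mm10 and GRCh38.p13. Here 115140 of 118489 transcripts were assigned to GENCODE M39 genes by identifier without version. Unmatched transcripts held 0.755% to 1.01% of the counts. Promoter sequences came from RefSeq (GRCm38.p6), and no coordinate was moved between builds.

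Estimated counts were summed per gene, rounded, filtered (filterByExpr, minimum count 10), TMM-normalized and tested with edgeR 4.0.16 (R 4.3.3; quasi-likelihood F-test) within each comparison, and p was Benjamini-Hochberg adjusted over all genes tested. A gene was called at an adjusted p of at most 0.05, and a differentially expressed gene (DEG) also changed at least 2-fold. Fold changes come from each comparison's own fit, and CPM from 1 normalization of all libraries. Transcript shares were tested by exact permutation. The main edgeR fit of each comparison was tried on simulated counts, with results not reported here. The members and lists were chosen with earlier results of these data known. All 7 enzymes were named in every comparison, and genes of the 4 lists where they passed; some genes of these lists are not reported here. Genes like Alas1 in pattern were ranked with a pseudocount of 0.5 CPM. Alternatives were DESeq2 1.42.0, upper-quartile scaling, 2 treatments of transcript length, a length and GC offset, no filter, no mitochondrially encoded genes, all libraries in 1 fit, a replicate block, a stricter threshold and leaving out libraries. After seeing the data, the DEG rule for counts of enzymes, CPM per kilobase and the same alternatives for the lists were added. The coefficient of variation between libraries was 0.241 in ECs and 0.149 in hearts.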

Additional observations from a re-analysis of the deposited data

Results flagged for a closer look

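In heart WT, the library heart WT 2 stood apart from the other 3 libraries for 2 of the 7 enzymes, with Cpox at 34.3 CPM against 40.7 to 41.8 and Ppox at 16.5 CPM against 13.1 to 13.6. The gap to the nearest library, as a share of the group's range, was above Dixon's 95% limit for 4 samples, which chance gives in about 5.0% of groups. The effect of genotype differed between the tissues by the interaction test in edgeR for Alas1 (1.17), Alad (1.02), Uros (0.69), Urod (0.51) and Fech (0.64), each as the heart log2 fold change minus that of ECs. The share of Ppox TPM held by Ppox-201 moved by -17.83 percentage points in ECs and by 21.12 in hearts, with all Hmox2-/- libraries on opposite sides of the Hmox2+/+ libraries in the 2 tissues. The difference between these shifts was not tested, and the shares rest on the low counts of Ppox given above.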

How the results depend on the processing

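Over the 7 enzymes and 4 comparisons, 404 of 483 refitted values kept their direction and their side of the threshold, 49 were no longer called, 9 were newly called and 21 changed sign. The cause of these changes was not tested. These refits leave out the stricter threshold and the DEG rule, given below. The calls kept in every refit at the threshold of 0.05 were Alad and Uros in hearts, Uros, Cpox and Fech between WT tissues, and Alad and Fech for the difference between tissues. Among the values that changed sign, none was called with either sign. In ECs Uros was 0.041 with upper-quartile scaling and 0.015 with the length and GC offset, and ran from -0.17 to 0.091 when each library was left out in turn. Cpox in ECs was -0.064 with the average transcript length, -0.067 with length-scaled TPM and -0.0059 in the fit of all libraries, and ran from -0.042 to 0.13 when each library was left out. In hearts Ppox was -0.12 with the length and GC offset and ran from -0.018 to 0.23 over the libraries left out. Between WT tissues Urod was -0.027 with upper-quartile scaling and Alas1 and Alad were 0.23 and 0.23 with the length and GC offset. Over the libraries left out, Urod there ran from -0.016 to 0.20 and Alas1 from -0.36 to 0.42 (the highest without EC WT 1). For the difference between tissues Ppox was -0.028 with upper-quartile scaling, -0.31 with the length and GC offset and -0.016 to 0.22 over the libraries left out. The share of Alas1-211 in hearts minus that in ECs (WT) was 0.10 percentage points in TPM and -0.093 in estimated counts.

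With the DEG rule 0 enzymes were higher and 0 lower in hearts, 0 were lower in hearts than in ECs, and 2 differed between the tissues. At an adjusted p of 0.01 the genes called were 339 higher and 232 lower in ECs, 1134 and 997 in hearts, and 1336 and 885 for the difference. The enzymes then called were 1 lower in ECs (Alad), 1 higher in hearts (Uros) and 1 for the difference (Alad), with those that follow. Alad kept its call as lower in hearts, with an adjusted p of 0.00173 by edgeR. Between WT tissues Uros, Cpox, Ppox and Fech kept theirs, with adjusted p of at most 0.00152. Genes lower in ECs were 1943 with DESeq2 and 2393 in the fit of all libraries, against 1234. With the length and GC offset 1 enzyme was lower in ECs, 1 higher and 2 lower in hearts, 0 lower between WT tissues, and 2 higher for the difference. With the average transcript length 0 were lower between WT tissues and 3 were higher for the difference, as with length-scaled TPM (3), and upper-quartile scaling left 2. Of called genes, 64.8% were higher in ECs with upper-quartile scaling and 44.6% in the fit of all libraries, against 55.4%, and for the difference 46.0% against 56.1%. Upper-quartile scaling moved the median of all genes between WT tissues by -0.12.

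Leaving out each library in turn gave 375 to 1875 genes higher and 263 to 1721 lower in ECs, with 1 to 3 enzymes lower. The lowest counts came without EC KO 3. In hearts it gave 1535 to 2911 higher and 1353 to 2775 lower, with 1 to 2 enzymes higher, and the lowest came without heart KO 2. Between WT tissues 1 to 2 enzymes were lower, and for the difference 2 to 5 were higher. Without EC KO 2 and EC KO 3 together, 23 genes were higher, 26 lower and 0 enzymes were called lower.

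The replicate numbers were not taken to pair the samples, since in no comparison was the correlation over 0.1 for every pair. The correlations of same-numbered samples' deviations were 0.219, 0.0704 and 0.0641 in ECs, -0.0626, 0.0956 and 0.0456 in hearts, and 0.102, 0.00732 and 0.0553 between WT tissues. With the replicate number as a block, hearts had 1452 genes higher and 1447 lower, 1 enzyme was higher (Urod was 0.35, adjusted p = 0.0520 by edgeR), and Alas1 between WT tissues was 0.065. The low depth of heart WT 1 and 3 or 4 libraries a group limit what differences could be seen.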
